A study of Bos taurus with 12 samples.

Results

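The comparison set the theca cells of large bovine follicles against those of medium follicles, on 4 of the 12 arrays of the series. The 2 arrays titled as theca of large follicles (over 10 mm in diameter) and the 2 titled as theca of medium follicles (5 to 10 mm) were chosen by their titles. The other 8 arrays held theca of small follicles (up to 5 mm) and granulosa cells of all 3 sizes, again 2 arrays per group. All ovaries came from young, nonpregnant, cycling heifers, taken in the follicular stage of the cycle, without a corpus luteum and with large follicles growing. No group was treated and no genotype or breed was given in the sources used here. Each RNA sample was a pool of the cells of 20 to 40 follicles of 1 size, while the design text speaks of that many ovaries from 6 to 10 animals. Whether 2 pools shared animals, and how the layers were separated, is not given in the sources used here. A p-value here therefore reflects how much 2 pools of a group differ, which may be less than animals differ.

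The theca is the vascular coat of the ovarian follicle, and it lies outside the basement membrane that bounds the granulosa cells. Its steroid cells answer luteinising hormone through the receptor LHCGR, bring cholesterol into the mitochondrion through STAR and make androgen through CYP11A1, HSD3B1 and CYP17A1. Granulosa cells answer follicle-stimulating hormone through FSHR and turn that androgen into oestradiol through the aromatase CYP19A1. The coat also holds blood vessels, fibroblasts, smooth muscle and immune cells, so in a bulk sample fewer cells of a type and less RNA per cell cannot be told apart.

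The values were signal intensities of an Affymetrix bovine array, scaled by the authors to a common mean. Tests used limma on log2(signal + 16) over all 12 arrays, for 17236 of 24016 probe sets whose mean log2 value in at least 1 group was above the 40th percentile, a signal of 22.5. A probe set is the array's unit of measurement, and several can report 1 gene. All changes below are large minus medium on the log2(signal + 16) scale with the standard error, and a fold is of signal + 16, which understates the change of dim genes. Calls needed an adjusted p (Benjamini-Hochberg, over all tested probe sets) under 0.05.

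The 4 arrays carried the markers of their label. INSL3, a peptide hormone of theca cells, read 7810.6 and 8462.6 in medium theca and 8461.6 and 9088.7 in large theca, against 315.7 to 995.0 in granulosa cells of these sizes. CYP17A1 read 2935.6 to 5781.5 in theca and 50.1 to 227.7 in granulosa. Transcripts of granulosa markers were present too. The summed signal of 18 of them was 17630 to 28736 in medium theca and 28190 to 40257 in large theca. In large granulosa it was 37523 to 54049. The brightest members weigh most in such a sum, so it is no measure of granulosa cell content. In large theca the brightest was INHA, the inhibin alpha subunit, at 7549.4 and 7721.7. Its granulosa minus theca difference at large size was 0.54 (limma adjusted p = 0.482). GAPDH 3'/5' signal ratios, a measure of RNA integrity, ran from 1.07 to 1.20 on the 4 arrays, and the actin ratio was highest, at 7.57, in replicate 2 of medium theca. Rank correlation was 0.955 within the medium pair, 0.95 within the large pair and 0.93 to 0.952 between them. On theca small replicate 1 the GAPDH ratio was 8.36, and on granulosa large replicate 1 the actin ratio was 21. Those 2 arrays are not in the group means of the large minus medium theca contrast. They enter it through the shared estimate of spread, the filter and the choice of probe set per gene. Theca small replicate 1 also enters the mean in every comparison with small theca below.

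No probe set passed the test between large and medium theca: limma called 0 of 17236 (0%), and the lowest adjusted p was 0.0735. At an unadjusted p under 0.05 there were 539 probe sets (3.13%), of which 200 were higher in large theca (1.16%) and 339 lower (1.97%). If no probe set changed, a share of about 0.05 would fall there, so 3.13% is no excess. A change of at least 2-fold with no overlap between the arrays was seen for 136 probe sets higher in large theca (0.789%) and 198 lower (1.15%). Among all 24016 probe sets other than controls these made up 0.566% and 0.824%. The median standard error of a change was 0.38, larger than the median absolute change of 0.22. With 2 arrays against 2, an exact two-sided permutation test cannot give a p below 0.333. In the granulosa layer, the same contrast of sizes gave 117 calls (0.679%), 112 of them higher in large follicles (0.65%).

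**Figure D1:**
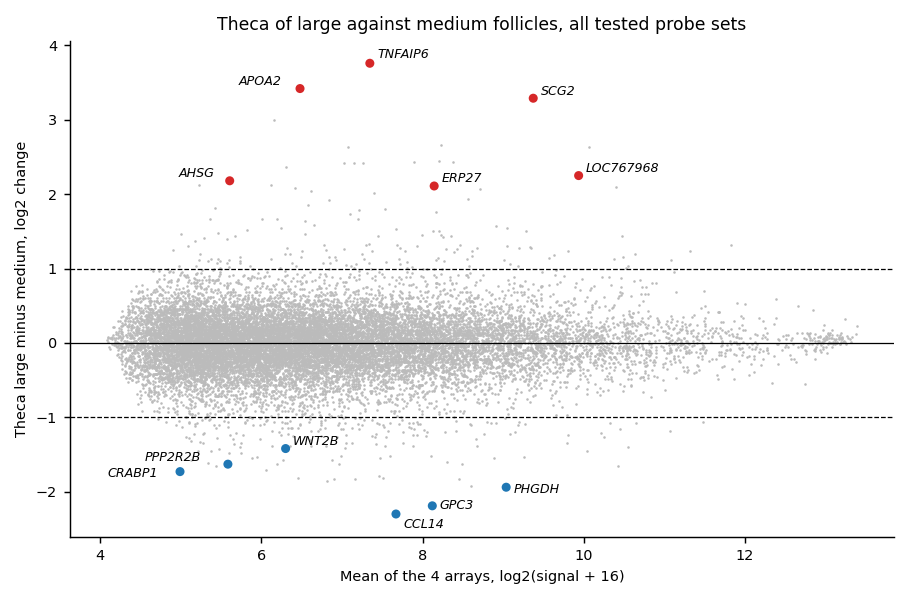
Change between large and medium theca (vertical axis, log2) against the mean of the 4 arrays (horizontal axis, log2(signal + 16)), 1 point per tested probe set of 17236. The 6 genes of lowest p in each direction are named and coloured, dashed lines mark 2-fold, and none of the points was called.

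The genes of lowest p among those higher in large theca were APOA2, TNFAIP6, LOC767968, ERP27, SCG2 and AHSG. They were picked only among probe sets whose large and medium arrays did not overlap, so that separation is no separate result. APOA2, an apolipoprotein of high-density lipoprotein, read 20.1 and 4.7 in medium theca and 167.4 and 447.9 in large theca. Both large arrays lay above both medium ones, which were below the signal of 22.5, and the probe set entered the test only through the large groups of either layer. The change was 3.42 ± 0.47, a 10.7-fold difference, with an adjusted p of 0.0735. TNFAIP6, a hyaluronan-binding protein of the matrix formed around the egg at ovulation, read 71 and 6.4 in medium theca and 361.1 and 938.5 in large theca. Its change was 3.76 ± 0.60 (adjusted p = 0.157), the arrays did not overlap, and its second probe set gave 3. Each passed the test when 1 array was left out, with the lone array of that size assumed to vary like the other groups: APOA2 without large replicate 1 (4.08, adjusted p = 0.0323) and TNFAIP6 without medium replicate 1 (4.74, adjusted p = 0.0368). Over 15 alternatives their adjusted p ran from 0.0323 to 0.945 and from 0.0368 to 1.

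LOC767968, which the RefSeq table lists with the synonyms BEX1 and BEX2, had the closest replicates of this side. It read 429.5 and 436.9 in medium theca and 1823.5 and 2467.5 in large theca, a change of 2.25 ± 0.38 (adjusted p = 0.157). ERP27, a protein of the endoplasmic reticulum, read 93.5 and 153.8 in medium theca against 620.5 and 525.7 in large theca (2.11 ± 0.37). Both genes kept the sizes apart on every array, as the choice required. SCG2, the precursor of secretogranin II in secretory granules, read 132.1 and 288.4 in medium theca and 4230.2 and 994.3 in large theca (3.29 ± 0.71, adjusted p = 0.622). Its 2 large arrays lay far apart from each other, though both above the medium arrays. AHSG, the plasma glycoprotein fetuin-A, read 2.1 and 13 against 100.5 and 76.6 on 1 probe set (2.18 ± 0.48). Its 5 other probe sets gave -0.27 to 1.30, so they disagree in direction.

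Small theca lay closer to medium than to large theca for APOA2, TNFAIP6, LOC767968 and ERP27. The difference of medium from small theca was 0.22 for APOA2, 0.76 for TNFAIP6, 0.45 for LOC767968 and -0.13 for ERP27, while AHSG gave -1.07. Against small theca, which shares the large arrays with the main comparison, large theca gave 3.64 for APOA2 (adjusted p = 0.00906), 4.53 for TNFAIP6 (0.00907) and 2.70 for LOC767968 (0.0134). All 3 passed that test, in which 6 probe sets were called in all (0.0348%). Its small theca mean includes replicate 1, the array with a GAPDH 3'/5' ratio of 8.36. In granulosa cells, APOA2 rose from medium to large follicles by 2.28 (adjusted p = 0.0442) and TNFAIP6 gave 2.57 (0.0703). ERP27 and SCG2 gave -0.74 and -0.37 there.

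On the low side, the chemokine CCL14 read 575.4 and 328.6 in medium theca and 76.9 and 75 in large theca. That is a change of -2.30 ± 0.40, 4.91-fold lower, with an adjusted p of 0.157. GPC3, a heparan sulphate proteoglycan of the cell surface, read 588.3 and 570.7 in medium theca and 135 and 96.3 in large theca (-2.19 ± 0.42, adjusted p = 0.342). Neither gene's sizes overlapped, as the choice required, and the medium replicates were close for GPC3 but not for CCL14. PHGDH, the first enzyme of serine synthesis, read 806.3 and 1272.9 against 302.2 and 210.2 (-1.94 ± 0.41). CRABP1, which binds retinoic acid in the cytosol, read 43.8 and 40 in medium theca against 1.6 and 1.4 in large theca (-1.73 ± 0.35). Both large arrays were thus near the bottom of the scale. PPP2R2B, a regulatory subunit of protein phosphatase 2A, read 52.9 and 87.7 against 11.8 and 10.8 (-1.63 ± 0.32). WNT2B, a WNT ligand, read 120.8 and 106.1 against 38.3 and 26.7 (-1.42 ± 0.32), and its other probe set gave -0.91. These 6 genes were likewise picked among probe sets without overlap of the 2 sizes, and none was called. Medium and small theca differed by 0.49 or less in size for each of them, with -0.24 for WNT2B and 0.49 for PHGDH.

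**Figure D2:**
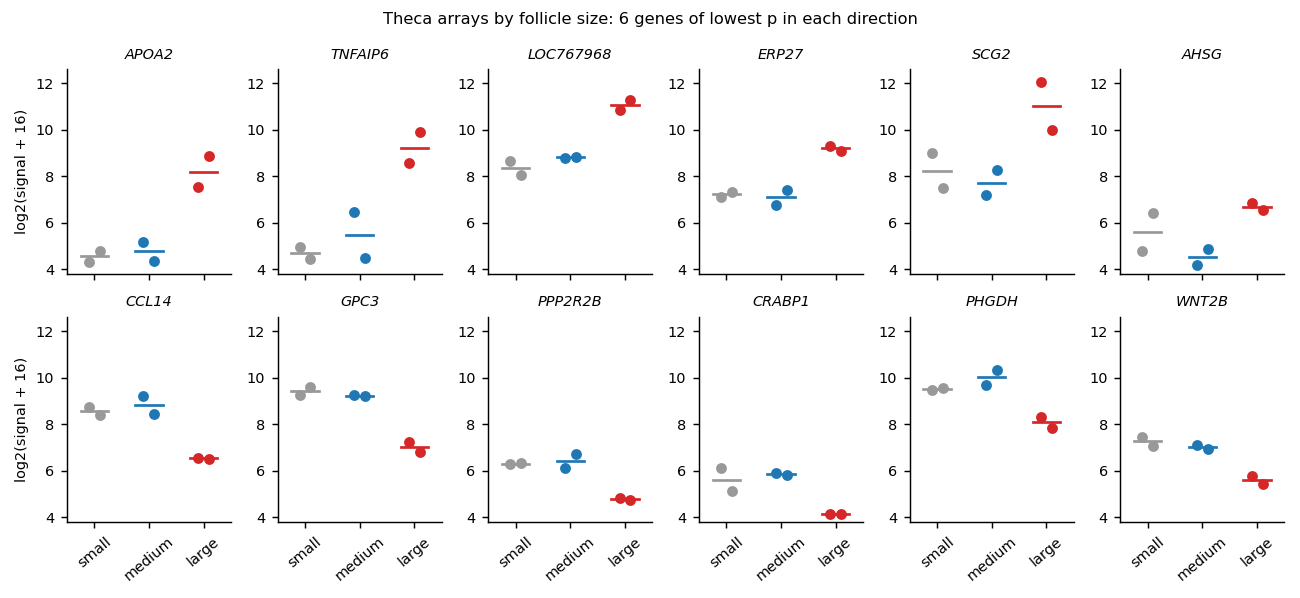
Level of the 12 genes of lowest p on the 6 theca arrays, as log2(signal + 16) by follicle size (dots are arrays, bars are means of 2 arrays). The genes were picked among those whose large and medium arrays do not overlap, so these lie apart in each panel. The SCG2 and TNFAIP6 panels show replicates far from each other.

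Of the enzymes of androgen synthesis, CYP17A1 and CYP11A1 gave small changes with wide intervals, and HSD3B1 lay higher in large theca. CYP17A1 gave 0.29 ± 0.57 (95% interval -0.94 to 1.52) and CYP11A1, which cuts the cholesterol side chain, 0.17 ± 0.39 (-0.66 to 0.99). HSD3B1 read 1289.2 and 1056.3 in medium theca and 1878.3 and 2325.3 in large theca, with no overlap. Its change was 0.83 ± 0.37 (0.04 to 1.63, unadjusted p = 0.0414, adjusted p = 1), a 1.78-fold difference that was not called. The hormone gene INSL3 gave 0.11 ± 0.47 (-0.91 to 1.13). The intervals of CYP17A1 and INSL3 leave room for a change of 2-fold, so the values do not show equal levels. The large and medium arrays of CYP17A1, CYP11A1 and INSL3 overlapped. CYP17A1 was -0.19 and CYP11A1 -0.12 without large replicate 1.

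The receptor LHCGR and the cholesterol carrier STAR also lay higher in large theca. LHCGR read 49.1 and 40.5 in medium theca and 87.6 and 158.5 in large theca, with no overlap. Its change was 1.15 ± 0.36, a 2.22-fold difference (unadjusted p = 0.00631, adjusted p = 1), and its second probe set gave 1.46. STAR read 731.5 and 1480.8 against 3599 and 1591.5 (1.19 ± 0.67). ALDH1A1, which makes retinoic acid, read 1594 and 3277.2 against 5339 and 6173.7 (1.32 ± 0.51). None of these genes passed the test. NR2F2, a nuclear receptor of stromal cells, gave -0.23 ± 0.30, and the hedgehog receptor PTCH1 was too dim to be tested, at 1.3 to 8.2 in theca. Of the 11 theca steroid markers tested, 8 lay higher and 3 lower in large theca, with a median of 0.17 beside -0.006 over all tested probe sets. That median was -0.08 without large replicate 1 and 0.45 without large replicate 2. Of the wider steroidogenesis list, 13 of 16 lay higher (median 0.21, and 0.05 and 0.38 without large replicate 1 and 2).

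Genes of cholesterol synthesis and uptake lay higher in large theca for 15 of 18 members, and 12 of them did so without overlap. Higher changes without overlap made up 17.7% of all tested probe sets, and any positive change 49.3%. The list's median was 0.87. MSMO1, a demethylase late in the pathway, read 604.2 and 1183.4 in medium theca and 2499 and 2155.5 in large theca (1.44 ± 0.42). SQLE, squalene epoxidase, read 251.6 and 239 against 720.9 and 530.8 (1.28 ± 0.46). Both separated the sizes, and neither was called (adjusted p = 0.99 and 1). CYP51A1 and LSS, which act between SQLE and MSMO1, gave 1.26 and 1.08. HMGCS1, an early enzyme, gave 1.04, SOAT1, which esterifies cholesterol, 1.03, and SCARB1, which takes up high-density lipoprotein cholesterol, 0.87. The 3 members on the other side were SREBF1 (-0.59), NPC1 (-0.19) and MVD (-0.08). In granulosa cells the list's median was -0.34 for the same sizes. No member's layer difference passed the test. The theca median was 0.50 without large replicate 1 and 0.94 without large replicate 2.

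Aromatase gave the largest change among the granulosa markers tested in theca. CYP19A1 read 21.9 and 52.8 in small theca, 911.6 and 183.8 in medium theca and 1633.2 and 4279.2 in large theca. Each size lay above the one before it with no overlap. The large minus medium change was 2.63 ± 0.63, a 6.18-fold difference (unadjusted p = 0.000938, adjusted p = 0.679), and the second probe set gave 1.85. From small to large theca CYP19A1 rose by 5.70 (adjusted p = 0.00203). The medium minus small difference was 3.08 and was not called (adjusted p = 0.464). Between medium and small theca 2 probe sets (0.0116%) were called. In granulosa cells it read 3113.9 and 1819.7 at medium size and 3134.3 and 1820.5 at large size, a change of 0.01. Granulosa minus theca was -0.15 at large size (adjusted p = 0.923), in a contrast that called 760 probe sets (4.41%). At medium size granulosa was higher by 2.48 (adjusted p = 0.0325), in a contrast that called 1034 (6%). The test of the layer difference gave 2.62 ± 0.89 (adjusted p = 0.45).

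INHBA, the beta A subunit of inhibins and activins, had a like course. It read 171.3 and 135.2 in small theca, 2846.9 and 955.9 in medium theca and 2621.5 and 5756.4 in large theca. Medium and large arrays overlapped, and their change was 1.23 ± 0.50. From small to large theca INHBA rose by 4.54 (adjusted p = 0.00203).

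Other granulosa markers gave mixed values in theca. CRABP2, another retinoic acid-binding protein, gave 1.66 ± 0.60 (173.1 and 20.5 against 161.9 and 369.5, overlapping). NR5A2, a nuclear receptor of granulosa cells, gave 1.07. FSHR gave -0.17 ± 0.64, AMH, a hormone of small growing follicles, -0.35, and the epithelial keratins KRT8 and KRT18 0.18 and 0.15. INHA, the inhibin alpha subunit, gave 0.49 and FST, the activin-binding follistatin, 0.34. HSD17B1, which activates oestrone to oestradiol, lay the other way: 749.4 and 733.1 in medium theca, 137.4 and 245.9 in large theca, a change of -1.92 ± 0.66. In all, 15 of 18 granulosa markers lay higher in large theca and 3 lower, with a median of 0.30, which was 0.12 without medium replicate 2 and 0.50 without medium replicate 1. CYP19A1, CRABP2, INHBA and CDH2, an adhesion molecule, were each higher in medium replicate 1 than in medium replicate 2 and in large replicate 2 than in large replicate 1. INHA, FST, FSHR and HSD17B1 had the same order, by little for INHA in large theca and HSD17B1 in medium theca. The summed signal of the 18 markers followed it too, but it includes these genes and is no separate result. That sum was 28735.5 and 17630.1 in medium replicates 1 and 2, and 28190.5 and 40256.8 in large replicates 1 and 2. KRT18 was higher in large replicate 1. The part of granulosa cells carried over in these values was not tested.

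**Figure D3:**
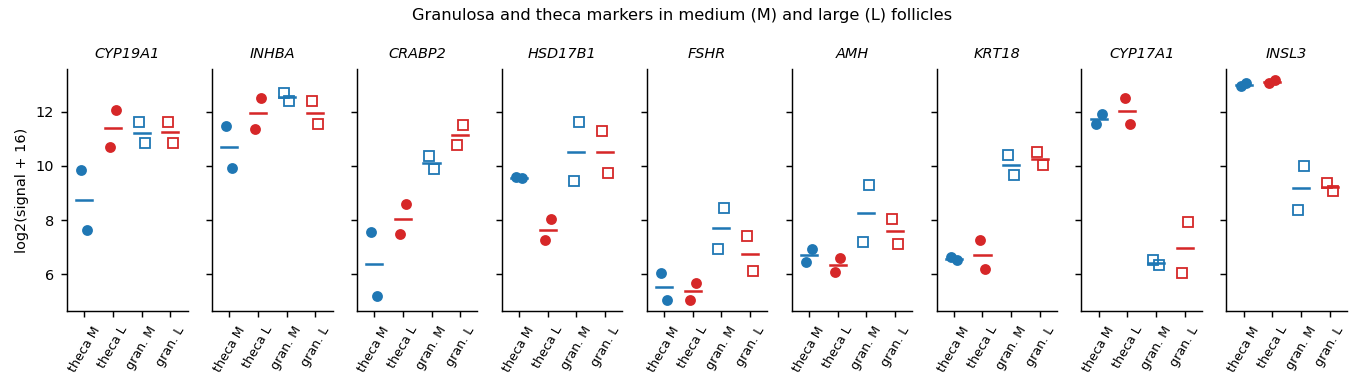
Granulosa and theca markers on the 8 arrays of medium (M) and large (L) follicles, as log2(signal + 16), filled circles for theca and open squares for granulosa cells, with bars at the mean of 2 arrays. For CYP19A1, 1 large theca array lies below and 1 above both large granulosa arrays, which does not show an equal level. CYP17A1 and INSL3 keep the layers apart. The theca change of FSHR, -0.17, has an interval of -1.53 to 1.2, too wide to show an equal level. Of the 18 granulosa markers tested, 15 lay higher in large theca and 3 lower.

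Endothelial genes were the list lying lowest in large theca. Of 19 tested, 18 lay lower, all 18 without overlap, and 10 were at least 2-fold lower (1.15% of all tested probe sets), while KDR, ACKR1 and SELE were too dim to be tested. Lower changes without overlap made up 22% of all tested probe sets, and any negative change 50.6%. The list's median was -1.07 (-1.31 to -0.73 with 1 array left out, and -0.58 on log2(signal + 64)). CLDN5, a tight-junction protein of endothelium, read 471.6 and 325.3 in medium theca and 160.3 and 150.7 in large theca (-1.25 ± 0.38). CDH5, the adhesion molecule of endothelial junctions, read 320.6 and 252.6 against 144.5 and 65.5 (-1.39 ± 0.44), and its second probe set gave -1.21. ROBO4, an endothelial guidance receptor, read 95 and 114.3 against 41.9 and 7.4 (-1.71 ± 0.50). These genes separated the sizes, with large replicate 2 the lowest array for each. PECAM1 gave -1.22, the angiopoietin receptor TEK -1.15, its relative TIE1 -1.21, ENG -1.09 and VWF, a clotting factor of endothelium, -1.07. The exception was MMRN1 at 0.10. No member was called.

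The summed signal of the 22 endothelial markers on the array was 2741 to 3055 in medium theca and 992 to 1704 in large theca, with 2503 to 3072 in small theca. In granulosa cells the list's median was 0.70 for the same sizes, and no endothelial gene's layer difference was called (lowest adjusted p = 0.167, CLDN5). Of the angiogenic factors, 8 of 22 lay higher and 14 lower (median -0.12, from -0.28 without medium replicate 2 to 0.04 without large replicate 2). VEGFD, a growth factor of lymphatic vessels, gave -1.24 ± 0.32 and APLNR, the apelin receptor, -1.11 ± 0.41. The second APLNR probe set gave 0.07, at dim signals of 6 to 9.7. Of 16 smooth muscle and pericyte genes, 11 lay higher and 5 lower (median 0.17, and -0.04 without large replicate 1), with CALD1 at 0.83 and PLN at 0.61, so the coat's contractile genes did not lie with the endothelial ones.

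Among matrix genes, most collagens and most genes of basement membrane and elastic fibres lay lower in large theca, and none was called. Of 16 collagens, 14 lay lower (50.6% of all tested probe sets), 11 without overlap (22%) (median -0.49, and -0.74 and -0.31 without large replicate 1 and 2). COL15A1, a collagen of basement membrane zones, read 803.4 and 1298.2 in medium theca and 484.7 and 242.9 in large theca (-1.53 ± 0.46), with -1.81 on its second probe set. COL5A3 read 55.4 and 50.3 against 5 and 14.1 (-1.45 ± 0.35). COL4A1, a chain of the basement membrane's network, read 4131.7 and 4092.9 against 2926.1 and 1324.6 (-1.06 ± 0.42). All 3 separated the sizes. Of 20 genes of basement membrane and elastic fibres, 16 lay lower (median -0.55, and -0.89 and -0.29 without large replicate 1 and 2).

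MFAP5, a glycoprotein of microfibrils, had its highest signal at medium size. It read 47.3 and 68 in small theca, 656 and 433.1 in medium theca and 135.1 and 202.8 in large theca. The large minus medium change was -1.60 ± 0.36 (adjusted p = 0.676), and from small to medium theca it rose by 2.91 (adjusted p = 0.0235). LTBP1, which anchors latent TGF-beta, gave -1.04 ± 0.43. Of 22 fibroblast and stroma genes, 18 lay lower (median -0.28). CXCL14, a chemokine of stroma, read 573.3 and 1096.4 against 289 and 233.2 (-1.55 ± 0.48). Their summed signal was 53319 to 53457 in medium theca and 42504 to 46756 in large theca. Collagen-processing enzymes had 5 of 16 members higher and 11 lower (median -0.13, from -0.40 without large replicate 1 to 0.02 without medium replicate 1, P3H2 at 0.67 and LOXL1 at -0.63). Proteoglycans and hyaluronan matrix had 6 of 20 higher and 14 lower (median -0.16), with TNFAIP6 and GPC3 at the ends. Proteases and their inhibitors had 13 of 22 higher and 9 lower (median 0.21, from -0.18 without medium replicate 2 to 0.42 without medium replicate 1), with TIMP3 at -0.98 and ADAMDEC1 at -0.70.

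Of 33 cell cycle genes, none lay higher in large theca, 29 lay lower without overlap and 9 were at least 2-fold lower, beside 22% and 1.15% of all tested probe sets. UBE2T, at 0.00, was the member nearest to zero. The median was -0.75, and -1.09 to -0.52 with 1 array left out. By array, the list's median level was set against each gene's mean over the medium and large arrays. It was -0.52 and 0.24 in small theca, 0.14 and 0.69 in medium and -0.35 and -0.4 in large. Small replicate 1 thus lay below both large arrays and small replicate 2 above them. AURKB, a kinase of chromosome segregation, read 174.8 and 199.6 in medium theca and 64.6 and 75.7 in large theca (-1.24 ± 0.43, and -1.15 on its second probe set). CDC20, which starts anaphase, read 243.3 and 302 against 112.6 and 106.4 (-1.19 ± 0.49). CCNB1, a mitotic cyclin, read 155.5 and 193 against 64.7 and 72.5 (-1.16 ± 0.36). These separated the sizes, and none was called (adjusted p = 1 for each). MCM5 of the replication helicase gave -1.04 and PLK1 -0.97. In granulosa cells the list's median was -0.33. Endothelial and fibroblast markers lay lower on the same arrays, and their part in the cell cycle values was not tested.

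**Figure D4:**
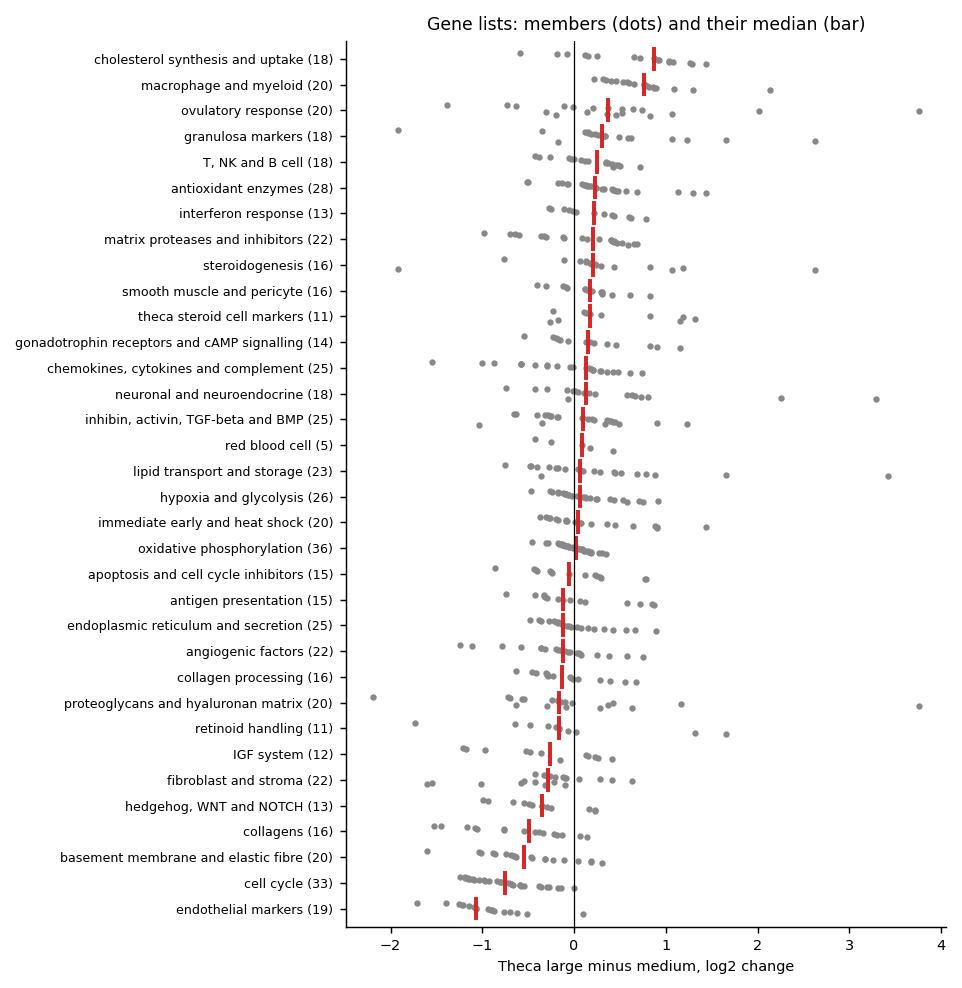
Large minus medium theca change (horizontal axis, log2) of every tested member of 34 gene lists, with the number of members in brackets and a red bar at the list's median. Cholesterol synthesis (0.87) and macrophage genes (0.76) lie at the top, endothelial (-1.07) and cell cycle genes (-0.75) at the bottom, and no member was called.

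All 20 macrophage and myeloid genes tested, of 22 on the array, lay higher in large theca, 10 of them without overlap, beside 17.7% of all tested probe sets (median 0.76). CD5L, secreted by macrophages, read 2.1 and 1.6 in medium theca and 135 and 24.4 in large theca (2.13 ± 0.66). C1QB, a chain of complement C1q, read 178.4 and 109 against 530.9 and 252.7 (1.30 ± 0.57). Large replicate 1 was the highest array for both, and neither was called. The median was 0.32 without large replicate 1, 0.45 without medium replicate 2 and 1.07 without large replicate 2. Summed macrophage signal was 1816 to 2416 in medium theca, 2680 to 5306 in large theca and 2408 to 2437 in small theca. In granulosa cells the list's median was 2.65, and 11 of its 20 genes rose with size under the test, in which 0.65% of all probe sets were called higher. Of 18 T, NK and B cell genes, 12 lay higher and 6 lower in large theca, and none was called. The median was 0.25, and 0.04 without medium replicate 2, with CD52 at 0.72 and GNLY at 0.50. In granulosa cells that list's median was 2.24. There 11 of the 18 were called higher at large size, beside 0.65% of all probe sets.

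The remaining immune lists lay near the median of all genes. Antigen presentation had 6 of 15 members higher and 9 lower (median -0.12), with BOLA-DQA5 at 0.87 and BOLA-DQB at 0.85. Without large replicate 2 BOLA-DQA5 was -0.08. Chemokines, cytokines and complement had 13 of 25 higher (median 0.13), with CXCL14 lowest and C7, a late complement component, at -1. Interferon response genes had 8 of 13 higher (median 0.22), with MX2 at 0.78 and IFI27 at 0.62. Of 5 red blood cell genes 3 lay higher (median 0.09), with AHSP at 0.42 and HBM at -0.42. Without large replicate 1 the medians of these 4 lists were -0.48, -0.14, -0.13 and -0.30, and antigen presentation and interferon response gave 0.24 and 0.67 without large replicate 2.

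Among the signalling lists the IGF and the hedgehog, WNT and NOTCH lists had the lowest medians. The IGF system had 5 of 12 members higher and 7 lower (median -0.26, and -0.10 without medium replicate 1 and -0.12 without large replicate 2). IGFBP4, a binding protein that limits IGF action, read 1625.4 and 1965.1 in medium theca and 923.4 and 633.4 in large theca (-1.21 ± 0.47). IGFBP3 gave -0.97. IGF2, the growth factor made by theca, read 3040.1 and 3393.8 against 1338.5 and 1489.9 on its brightest probe set (-1.18 ± 0.37). The hedgehog, WNT and NOTCH list had 3 of 13 higher and 10 lower (median -0.35, and -0.53 without medium replicate 2), with the NOTCH ligand JAG1 at -0.99 and the WNT receptor FZD4 at -0.94. Gonadotrophin receptors and cAMP signalling had 8 of 14 higher (median 0.15, from 0.03 without medium replicate 2 to 0.36 without medium replicate 1), with the nuclear receptor NR4A1 at 0.90. Inhibin, activin, TGF-beta and BMP genes had 14 of 25 higher (median 0.10, with the sign changed under 3 alternatives). Retinoid handling had 3 of 11 higher and 8 lower (median -0.16, from -0.30 without medium replicate 2 to -0.09 without medium replicate 1), with CRABP2 and CRABP1 at its ends.

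Ovulatory response genes had 13 of 20 members higher (median 0.37, and 0.19 without large replicate 2). OXT, the oxytocin precursor, read 92.4 and 48.3 in medium theca and 500.9 and 204.9 in large theca (2.02 ± 0.52, adjusted p = 0.679), with no overlap. HPGD, which breaks down prostaglandins, read 416.4 and 984.8 against 193.5 and 289.7 (-1.38). OXT gave 2.19 in granulosa cells (adjusted p = 0.0756). Antioxidant enzymes had 22 of 28 higher, 16 without overlap (median 0.23, and 0.15 without large replicate 1), beside 49.3% and 17.7% of all tested probe sets, with MGST1 at 1.44, GPX3 at 1.30 and NQO1 at 1.13. Neuronal and neuroendocrine genes had 12 of 18 higher (median 0.13, and 0.23 without medium replicate 1), led by SCG2. Lipid transport and storage had 14 of 23 higher (median 0.07, and 0.01 without large replicate 1). Next to APOA2 stood FABP4 at 1.66 ± 0.95, which read 36.9 and 8.7 in medium theca and 321.7 and 22.4 in large theca, overlapping. Its second probe set gave 0.07, at dim signals of 0.9 to 3.2.

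Housekeeping and stress lists had medians between -0.12 and 0.07. Oxidative phosphorylation had 19 of 36 higher, with a median of 0.02 and extremes of -0.46 (UQCRQ) and 0.35 (NDUFA2). Hypoxia and glycolysis had 14 of 26 higher (median 0.07, -0.15 without medium replicate 2, ALDOC at 0.91 and ADM at 0.75). Immediate early and heat shock genes had 11 of 20 higher (median 0.04, 0.20 without medium replicate 1, IER3 at 1.44 and ATF3 at 0.90). Endoplasmic reticulum and secretion had 9 of 25 higher (median -0.12, -0.06 without large replicate 2, CHAC1 at 0.89 and DNAJB9 at 0.66). Apoptosis and cell cycle inhibitors had 7 of 15 higher (median -0.05, -0.16 without medium replicate 2, CASP9 at -0.86 and GADD45A at 0.78).

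The large minus medium change of theca was tested against that of granulosa cells, the one other contrast of these sizes and one that shares no array with it. The difference between layers passed the test for 4 of 17236 probe sets (0.0232%), all with the lower change in theca, and 1297 (7.52%) had an unadjusted p under 0.05. The 4 calls were lost under several other settings, given below. IGF2 read 1577.5 and 1902.8 in medium theca and 593.7 and 652.2 in large theca on the probe set concerned. In granulosa cells the same probe set read 62.9 and 70.7 at medium size and 247 and 396 at large size. Neither layer's sizes overlapped, and the order was opposite. The theca change was -1.45, the granulosa change 1.99 and the difference -3.45 ± 0.51 (adjusted p = 0.0446). The brightest IGF2 probe set gave a difference of -2.91 (adjusted p = 0.167), and the third gave 0.09 in theca, at dim signals of 3.7 to 20.4.

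UCP2, a carrier of the inner mitochondrial membrane, read 100.1 and 130.8 in medium theca and 45.5 and 39.9 in large theca. In granulosa cells it read 7.6 and 7.3 at medium size and 213.6 and 94.7 at large size. The difference between the changes was -3.92 ± 0.53 (adjusted p = 0.0336), again with opposite order and no overlap. IGHM, the heavy chain of immunoglobulin M, read 221.6 and 121.8 in medium theca against 141.2 and 72 in large theca, and 67.2 and 30.2 against 682.1 and 636 in granulosa cells. Its theca arrays overlapped, and the difference of -4.07 ± 0.57 (adjusted p = 0.0336) lay mostly in the granulosa change of 3.44. The fourth probe set stands for several symbols and is not named. Its difference was -4.01 ± 0.57 (adjusted p = 0.0336).

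On the granulosa arrays summed macrophage signal was 1092 to 2422 at medium size and 8231 to 21562 at large size, and summed T, NK and B cell signal 315 to 643 and 2258 to 5754. Their part in the layer differences was not tested. The count of 4 was 0 with an offset of 1 or 64, with no filter and with the 8 arrays only. It was also 0 with the replicate number as a block, though no label ties those numbers together. It was 67 without granulosa large replicate 2, 2 without granulosa medium replicate 1, and 0 when any of the 6 other arrays of these groups was left out. Without theca small replicate 1 and granulosa large replicate 1 together, a choice made after seeing the data, 1 remained, IGF2.

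**Figure D5:**
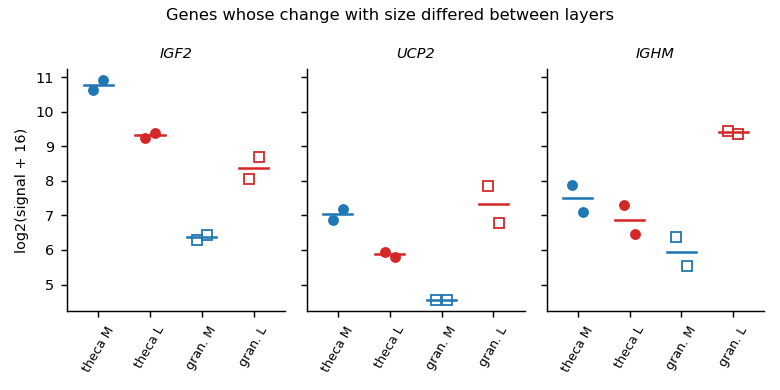
IGF2, UCP2 and IGHM on the 8 arrays of medium (M) and large (L) follicles, as log2(signal + 16), filled circles for theca and open squares for granulosa cells, with bars at the mean of 2 arrays. The theca means lie lower at large than at medium size and the granulosa means higher, with differences of -3.45, -3.92 and -4.07.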

How the data were processed

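The authors deposited linear signal intensities for each probe set of 12 one-colour Affymetrix bovine arrays, and the labels give biotin as the label of the total RNA. The software that made them is not given in the sources used here. The authors had scaled the arrays: the 2% trimmed mean over 24128 probe sets was 125.03 to 125.04 on each. With 2 arrays in a group, their number limits the precision. Groups came from the titles. The description field names theca for all 12 samples, and the marker levels bear on this. Of the 12 columns, 0 stayed unmapped.

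Here 112 control probe sets were left out, 16 was added and log2 taken, dim probe sets were removed, and limma 3.58.1 in R 4.3.3 (lmFit and eBayes without trend, residual df 6, prior df 7.92) fitted 1 mean per group. The rule for all probe sets other than controls was thus applied to 17236 of 24016, with the untested counted separately. The script was tested on simulated data. The platform annotation gave 1 symbol to 13292 probe sets, several to 86 and none to 10638. Of those symbols' Entrez IDs 13263 were found in the ARS-UCD2.0 table, and 0 symbols changed. The probe set of highest mean stood for a gene. Figures used matplotlib 3.10.9.

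Named genes were 13 key genes, up to 12 called genes per direction or else the 6 of lowest p, up to 4 called members of each list or else its 2 of largest change, and up to 6 called layer differences. The genes per direction were taken only from probe sets whose large and medium theca arrays did not overlap. Further list members named as examples were chosen after their values were seen. The members and the 34 lists (902 entries, 709 on the array, 651 tested as 598 distinct genes) were chosen with earlier results of these data known. Each list is described by counts and its median, with no set test. Alternatives were offsets of 1 and 64, no or a stricter filter, quantile normalization, median centring, a trend, fewer arrays, a replicate block and leaving out each array. No reference sequence was used, so none is printed.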

Additional observations from a re-analysis of the deposited data

Results flagged for a closer look

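Probe sets whose change with size differed between theca and granulosa cells by the test of that difference were IGF2 (-3.45), UCP2 (-3.92), IGHM (-4.07) and a probe set with several symbols (-4.01), each the theca change minus the granulosa change in log2. The granulosa change alone was called for all 4, and the theca change for none of them.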

How the results depend on the processing

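The count of 0 called probe sets between large and medium theca held under offsets of 1 and 64, no filter, a stricter filter, quantile normalization, median centring, a trend, the 8 large and medium arrays alone, and without theca small replicate 1 and granulosa large replicate 1 (added after seeing the data). With 1 array left out it ran from 0 to 1. The count of 4 layer differences was 0 with log2(signal + 1), 0 with log2(signal + 64), 0 with no filter, 0 with the 8 arrays only, and 0 to 67 with 1 array left out. It was 1 without both arrays that stand apart. The cause was not tested. Replicate numbers 1 and 2 recur in every group, but no label ties them together. Deviations of same-numbered theca arrays correlated at 0.14 to 0.27, and with the replicate as a block 0 probe sets were called in theca (838 at unadjusted p under 0.05) and 0 for the layer difference. Among named genes 1184 values kept direction and side of the threshold, 2 came to pass it and 7 turned in sign, all with 1 array left out. FSHR then ran from -0.67 to 0.34 (0.15 without theca large replicate 1), FST from -0.13 to 0.81 (-0.07 without theca large replicate 2), CYP17A1 from -0.19 to 0.78, CYP11A1 from -0.12 to 0.45 and BOLA-DQA5 from -0.08 to 1.82. List medians moved beyond the spread between replicates in 43 of 510 combinations of list and alternative. Quantile normalization and median centring shifted the median of all probe sets by 0.006 and 0.021. Signals under 22.5 limit the folds of dim genes.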
